A study of Mus musculus with 2 samples.

Results

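Collagens and laminins were represented by 56 of the 32227 genes in the count tables. They were the genes whose symbol names a collagen chain, a laminin alpha, beta or gamma chain, a nidogen (Nid1, Nid2), agrin (Agrn) or perlecan (Hspg2), with at least 10 counts over both libraries together. They were chosen by symbol and by this summed count, and the classes were selected on counts of other genes, so that levels by class are a description. Of 59 symbols that matched, Col10a1 (2 counts), Col9a2 (3 counts) and Col2a1 (4 counts) were below this minimum, and Col9a1 (13 counts), Col6a2 (17 counts) and Col6a1 (19 counts) were just above it. The levels of these genes were described across the cell classes of the thick ascending limb (TAL), the kidney tubule segment that reabsorbs salt, calcium and magnesium.

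Nuclei came from male B6 NKCC2-INTACT mice, in which a tamoxifen-inducible Cre under Slc12a1, the gene of the salt transporter NKCC2, puts Sun1-sfGFP into the nuclear membrane of TAL cells. The labels give the genotype as WT and the age as 12 without a unit, and both groups had tamoxifen. Kidneys were cut by hand into a superficial strip (cortex) and the remaining tissue (medulla, which therefore includes deep cortex), and GFP-positive nuclei were sorted and sequenced as 1 library per region. The number of animals behind a library is not given, so no difference here has a replicate check, a difference between regions cannot be told apart from a difference between libraries, and all intervals cover counting error only.

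Tubule cells rest on a basement membrane, a sheet built from a network of type IV collagen and a network of laminin that nidogens and heparan sulfate proteoglycans hold together. Type IV collagen molecules are trimers of chains encoded by head-to-head gene pairs, and laminins are trimers of an alpha, a beta and a gamma chain, of which the alpha chain carries most of the binding to cell receptors. Fibrillar collagens such as type V are better known from the interstitial matrix. Mutations of Col4a3, Col4a4 and Col4a5 cause Alport syndrome, a disease of the glomerular basement membrane.

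Nuclei with at least 10 Slc12a1 counts were put into 4 classes by counts of other genes. Macula densa (MD) nuclei had at least 3 counts of Nos1 and Pappa2 together, TAL-β nuclei at least 2 of Tmem52b, TAL-γ nuclei at least 2 of Tmem207 and Gpc5 together, and the rest were TAL-α, in this order. The cortex library held 2824 TAL-α, 1493 TAL-β, 248 TAL-γ and 653 MD nuclei, and the medulla library 3776 TAL-α, 571 TAL-β, 3542 TAL-γ and 78 MD nuclei. The libraries shared 0 barcodes and had median depths of 2427 and 2430 counts per barcode. Markers that the rule did not use followed the names in most classes. Levels are counts of a gene per 1000000 counts of the class (CPM). Cldn16, a claudin of the calcium and magnesium pathway, was at 188 CPM in TAL-β and 101 CPM in TAL-α of cortex, and at 250 and 60.2 CPM in those of medulla. Robo2 was at 4789 CPM in cortical MD and 475 CPM in cortical TAL-α. Of the TAL-α checks, Ptger3 was at 1207 CPM in cortical TAL-α and 157 CPM in cortical TAL-β, but Cldn10 at 216 and 116 CPM. Without barcodes holding markers of other cell types, described below, Cldn10 was at 177 and 14.3 CPM. Kcnt1, a check for TAL-γ, was at 176 CPM in medullary TAL-γ and 121 CPM in medullary TAL-α. Cortical nuclei in the TAL-γ class differed from their medullary namesakes in Ano4 (94.5 against 714 CPM), Kcnt1 (43.6 against 176 CPM) and Pth1r (455 against 42.0 CPM). Kcnj10, a check for TAL-β and TAL-γ, was at 144 against 109 CPM, and at 17.8 CPM in cortical TAL-α. Cortical TAL-γ nuclei are therefore given below by value only, apart from a Col5a2 ratio among the results flagged near the end. The cuts were narrow, since 331 of the cortical TAL-β nuclei had exactly 2 Tmem52b counts and 425 cortical TAL-α or TAL-γ nuclei had exactly 1. Because Tmem52b was read first, 359 of the 571 medullary and 475 of the 1493 cortical TAL-β nuclei also met the cut of TAL-γ, so TAL-γ below means nuclei with these counts and without those of TAL-β.

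Transcripts of proximal tubule, another kidney tubule segment, moved with the libraries. Summed over 8 markers, the proximal level ranged from 2093 to 3808 CPM among cortical classes, while the medullary classes spanned 434 to 705 CPM. Barcodes with at least 10 counts of markers of other cell types made up 7.96% to 23.7% of the cortical classes and 1.28% to 4.55% of the medullary ones. Ratios are therefore also given without these barcodes, called purged ratios here, mainly where this moved a value by over 1.5 times or across the 2-fold limit. A ratio given alone did not always stay within these limits. Purged nuclei still held proximal markers at 157 to 189 CPM in the cortical and 53.9 to 125 CPM in the medullary classes. The cut of 10 counts was not scaled to the depth of a nucleus. The part of these transcripts in other results was not tested.

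The regions before the starts of 3 members are shown because their levels across the TAL-β, TAL-γ and MD cuts are described in most detail in what follows. They are the 250 bases before the start of the Ensembl canonical transcript in GENCODE M39 on GRCm39, on the coding strand, with matches to the searched motifs in capitals.
Col5a2 (chr1:45542443-45542692, minus strand): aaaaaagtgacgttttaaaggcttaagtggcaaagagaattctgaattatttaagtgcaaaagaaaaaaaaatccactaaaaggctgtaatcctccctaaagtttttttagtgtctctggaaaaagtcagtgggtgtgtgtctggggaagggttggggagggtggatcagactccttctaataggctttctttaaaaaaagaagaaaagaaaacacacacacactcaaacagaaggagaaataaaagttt
Lama1 (chr17:68003973-68004222, plus strand): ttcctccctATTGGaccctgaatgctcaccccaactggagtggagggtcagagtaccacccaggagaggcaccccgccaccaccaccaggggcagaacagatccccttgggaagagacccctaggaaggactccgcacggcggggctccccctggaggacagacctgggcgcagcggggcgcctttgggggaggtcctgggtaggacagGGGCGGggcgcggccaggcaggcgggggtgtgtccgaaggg
Col4a6 (chrX:140257073-140257322, minus strand): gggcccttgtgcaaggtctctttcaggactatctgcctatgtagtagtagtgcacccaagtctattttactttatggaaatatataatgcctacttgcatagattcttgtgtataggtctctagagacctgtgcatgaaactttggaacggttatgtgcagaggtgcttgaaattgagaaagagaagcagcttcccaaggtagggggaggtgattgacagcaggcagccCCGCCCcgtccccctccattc
The motifs searched on both strands were the GC box GGGCGG, the CCAAT box CCAAT, the TATA box TATAAA, the octamer ATTTGCAT, the nuclear receptor element AAGGTCA and the palindromic HNF1 site. Lama1 held a GC box 41 bases and a reversed CCAAT box 241 bases before its start, counted to the first letter of the match, Col4a6 held a reversed GC box 21 bases before its start, and Col5a2 held none of the 6. Of 21770 such windows before protein-coding genes, 36.3% held a GC box, 36.5% a CCAAT box, 11.9% a TATA box, 1.49% the octamer, 3.93% the nuclear receptor element and 0.00459% the HNF1 site.

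The members took 144708 counts in the TAL classes, of which the 6 type IV chains held 93129, the 11 laminin chains 27596, the 10 fibrillar collagens 16647 and the 4 nidogens and proteoglycans 3688. The 19 fibril-associated, beaded, network-forming and anchoring fibril collagens held 2272 counts and the 6 transmembrane and multiplexin collagens 1376. Counts were concentrated in a few genes, with 26 of the 56 members at 200 counts or more and Col6a2 at 8. Per kilobase of gene span, the highest levels in cortical TAL-α were those of Lamb1 (9.67 CPM per kb), Col4a3 (7.69), Col4a4 (6.57) and Col5a2 (3.40). In medullary TAL-γ the order was Col4a3 (8.81), Col4a4 (8.57) and Lamb1 (4.33), and Col5a2 was at 0.400 CPM per kb.

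**Figure D1:**
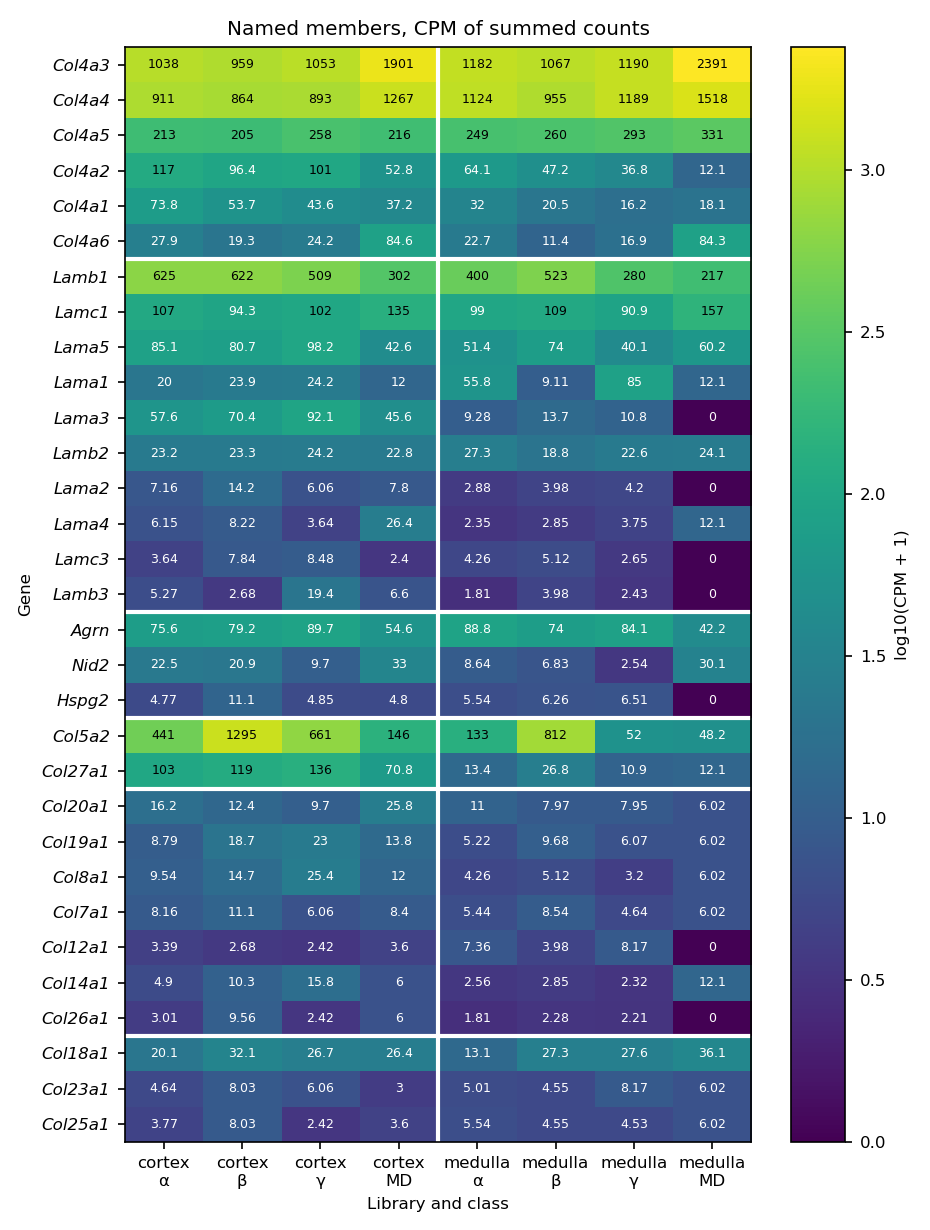
Level of 31 members (rows, ordered by family and total counts) in each class and library (columns), as CPM of the summed counts. Colours show log10(CPM + 1) and the printed numbers are CPM. Col4a3 and Col4a4 are high in every column, Col5a2 is highest in the TAL-β columns, Lama1 in medullary TAL-α and TAL-γ, and Col4a6 in MD.

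Col5a2 had the widest range of levels, taken as the highest over the lowest CPM. This holds among the members with at least 200 counts and a count in all 8 combinations of class and library. Col5a2 encodes a chain of type V collagen, which controls the thickness of collagen fibrils, and lies on chromosome 1 at 45412554 to 45542442 on the minus strand. In cortex its level was 441 CPM in TAL-α, 1295 CPM in TAL-β, 661 CPM in TAL-γ and 146 CPM in MD. In medulla it was 133 CPM in TAL-α, 812 CPM in TAL-β, 52.0 CPM in TAL-γ and 48.2 CPM in MD. TAL-β was thus highest in both libraries, and every cortical class was above its medullary namesake. Col5a1 and Col5a3, the other type V chain genes, had 47 and 17 counts in all TAL nuclei. Col5a2 overlaps Gm38211 on the same strand over 7217 bases.

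In cortex 73.1% of TAL-β and 32.6% of TAL-α nuclei had at least 1 Col5a2 count, at median depths of 2668 and 2425 counts. In medulla the shares were 46.8% and 11.8%, at median depths of 2780 and 2404 counts. After thinning each nucleus to 1000 counts these shares were 56.5% and 31.9% for TAL-β against 22.0% and 7.24% for TAL-α. Proximal barcodes, those with at most 2 Slc12a1 counts and at least 10 proximal marker counts, had a Col5a2 count in 3 of 85 cases in cortex (3.53%, median depth 3436 counts) and in 0 of 95 in medulla (median depth 4590 counts). By the rule that 0 allows up to 3 counts, this allows a share of up to 3.16%, and the exact upper limit is 3.81%. Detection was also uneven within TAL-β, where 14.5% of cortical nuclei had 10 Col5a2 counts or more.

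Cortical TAL-β exceeded TAL-α by 2.94-fold (95% interval 2.82 to 3.06), and medullary TAL-β by 6.09-fold (5.64 to 6.58). The purged ratios were 3.55 (3.39 to 3.72) and 6.37. Markers of the distal convoluted tubule, the next segment, were also higher in TAL-β, at 377 against 87.9 CPM in cortex and 211 against 6.61 CPM in medulla. In purged nuclei they were at 29.95 against 18.5 CPM in cortex and 9.41 against 5.69 CPM in medulla. Purging itself counted these markers, which lowers them by construction. The part of these transcripts in the Col5a2 difference was not tested.

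Col5a2 was higher at higher Tmem52b counts, also below the class cut. In purged cortical nuclei outside the MD class it was 388 CPM at 0 Tmem52b counts, 1383 CPM at 1, 1586 CPM at 2 and 2164 CPM at 8 or more. In medulla the same bins held 85.9, 261, 623 and 1349 CPM. Cortical nuclei with a single Tmem52b count, which the rule put into TAL-α or TAL-γ, were thus closer to TAL-β than to nuclei with none.

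**Figure D2:**
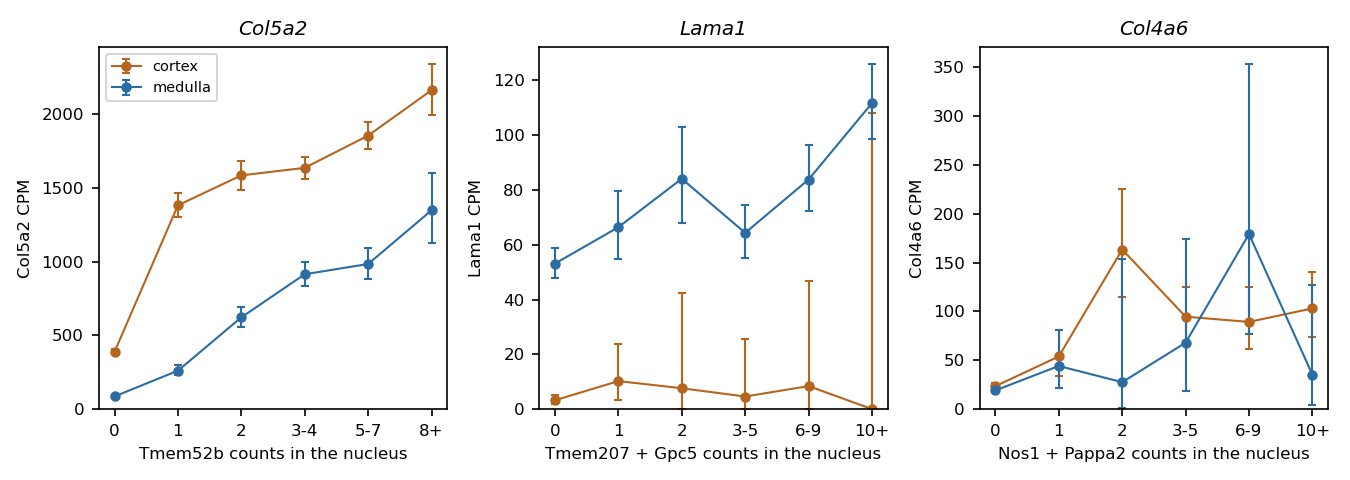
CPM of Col5a2 against Tmem52b counts, of Lama1 against Tmem207 + Gpc5 counts and of Col4a6 against Nos1 + Pappa2 counts per nucleus, in cortex and medulla, without barcodes holding 10 or more counts of other cell types. Bars are 95% Poisson intervals. Col5a2 runs from 388 to 2164 CPM in cortex, Lama1 from 53.1 to 112 CPM in medulla, and the medullary Col4a6 bins above 1 count rest on 11 to 29 nuclei each.

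The other members were compared between TAL-β and TAL-α in the same way. In cortex 7 of the 33 members with at least 50 counts were at least 2-fold higher in TAL-β, beside 1.76% of all genes with 50 counts, and 0 were at least 2-fold lower, beside 1.4% of all genes. Their median ratio was 1.16, and that of all genes 1.01. The other 6 were low genes at 7.84 to 18.7 CPM in TAL-β. They were Hspg2 (perlecan), Lamc3 (a laminin gamma chain), Col14a1 and Col19a1 (fibril-associated collagens), Col25a1 (a transmembrane collagen) and Col26a1. Purging took 4 of these below 2-fold. Col19a1 had a ratio of 2.13 (1.55 to 2.94) that turned to 0.829 (0.314 to 1.98) when purged, and Hspg2 went from 2.33 to 1.56 (0.808 to 2.97). Col14a1 went from 2.11 to 1.82 (0.9994 to 3.295) and Col25a1 from 2.13 to 1.81 (0.983 to 3.33). Col26a1 was at 2.20 when purged, on 19 and 17 counts. Lamc3 went the other way, from 2.15 (1.31 to 3.59) to 3.32 (1.82 to 6.19). Cortical barcodes not called as nuclei, with at most 100 counts, held Col19a1, Col14a1, Col25a1 and Lamc3 at 39.5, 18.1, 15.1 and 10.5 CPM. All cortical TAL nuclei together held these at 13.4, 7.40, 5.10 and 5.16 CPM. Hspg2 and Col26a1 were at 6.77 and 5.27 CPM in the uncalled barcodes and at 6.89 and 5.48 CPM in TAL nuclei. The part of such transcripts in these ratios was not tested.

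Other members passed 2-fold in cortical TAL-β only when purged. Col18a1 went from 1.60 to 2.13 (1.57 to 2.88) and Col23a1, a transmembrane collagen, from 1.73 to 2.57 (1.44 to 4.63). Col4a1, a chain of the common type IV network, was lower, going from 0.728 (0.629 to 0.841) to 0.485 (0.386 to 0.605).

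In medulla 2 of 25 members were at least 2-fold higher in TAL-β, beside 1.94% of all genes, and 1 was at least 2-fold lower, beside 2.92%. Besides Col5a2 the higher member was Col18a1, which encodes the collagen whose end fragment is endostatin, with 27.3 CPM in TAL-β and 13.1 CPM in TAL-α and a ratio of 2.08 (1.46 to 2.93, purged 1.92). Whether counting used the strand of a read is not given in the sources used here. Col18a1 overlaps Slc19a1 on the other strand over 8825 bases, so its counts are uncertain. The lower member was Lama1 (0.163, 0.0927 to 0.268), whose purged ratio was 0.0788. When purged, Col4a1 (0.480, 0.299 to 0.736) and Col4a6 (0.457, 0.261 to 0.750) were also lower.

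**Figure D3:**
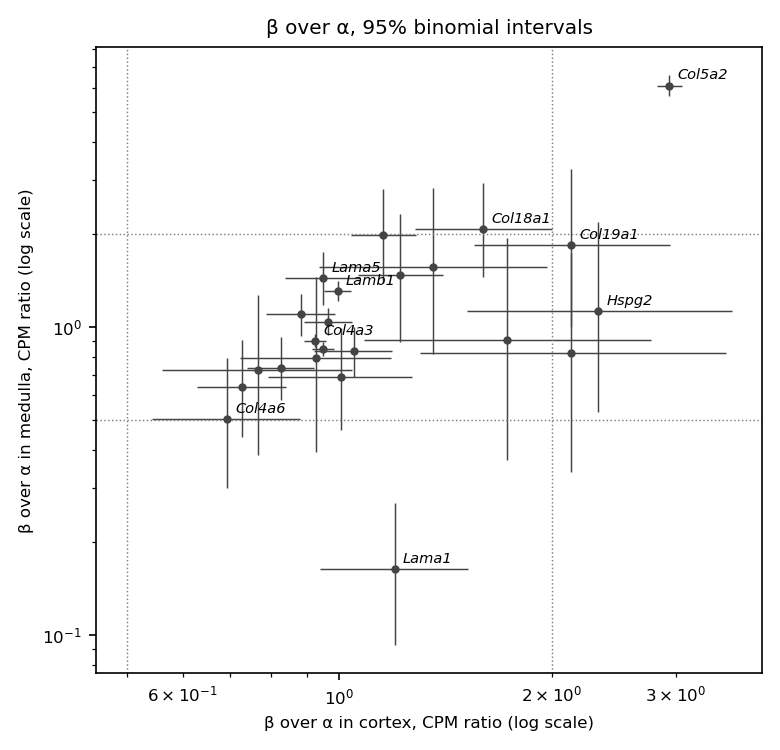
CPM ratio of TAL-β over TAL-α in cortex (x axis) and in medulla (y axis), both on log scales, for named members with at least 50 counts in each comparison. Bars are 95% conditional binomial intervals and dotted lines mark ratios of 0.5 and 2. Col5a2 stands alone at the top right (2.94 and 6.09) and Lama1 at the bottom (1.20 and 0.163). The purged cortical ratio of Lama1, not drawn, was 0.537 (0.178 to 1.37) on 6 and 22 counts.

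Lama1 encodes a laminin alpha chain best known from embryonic basement membranes, and lies on chromosome 17 at 68004223 to 68129642. In medulla its level was 55.8 CPM in TAL-α, 9.11 CPM in TAL-β, 85.0 CPM in TAL-γ and 12.1 CPM in MD, the last from 2 counts. In cortex it was 19.96, 23.9, 24.2 and 12.0 CPM in the same order. Medullary TAL-α and TAL-γ were above every other class, and their intervals overlapped those of none of the other 6.

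Proximal barcodes held Lama1 at 65.2 CPM (cortex) and 38.0 CPM (medulla). In purged nuclei cortical TAL-α was at 3.80 CPM and cortical TAL-β at 2.04 CPM, while medullary TAL-α was at 55.7 CPM and medullary TAL-γ at 85.5 CPM. Purging thus lowered the level in these cortical classes and left that in medullary TAL-α and TAL-γ. In medullary TAL-β it fell from 9.11 CPM on 16 counts to 4.39 CPM on 7 counts. The ratio of medulla over cortex in TAL-α was 2.79 (2.34 to 3.36), and 14.7 (9.57 to 23.6) when purged. The ratio of TAL-γ over TAL-β in medulla was 9.34 (5.71 to 16.4), and 19.5 (9.40 to 48.6) when purged. In TAL-β the ratio of medulla over cortex was 0.381 (0.211 to 0.643) and turned to 2.15 (0.619 to 7.74) on 7 and 6 counts. Along the counts of Tmem207 and Gpc5, purged medullary Lama1 was at 53.1 CPM with 0 counts, 66.4 CPM with 1 and 84.1 CPM with 2. It was at 64.3 CPM with 3 to 5 counts, 83.8 CPM with 6 to 9 and 112 CPM with 10 or more.

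**Figure D4:**
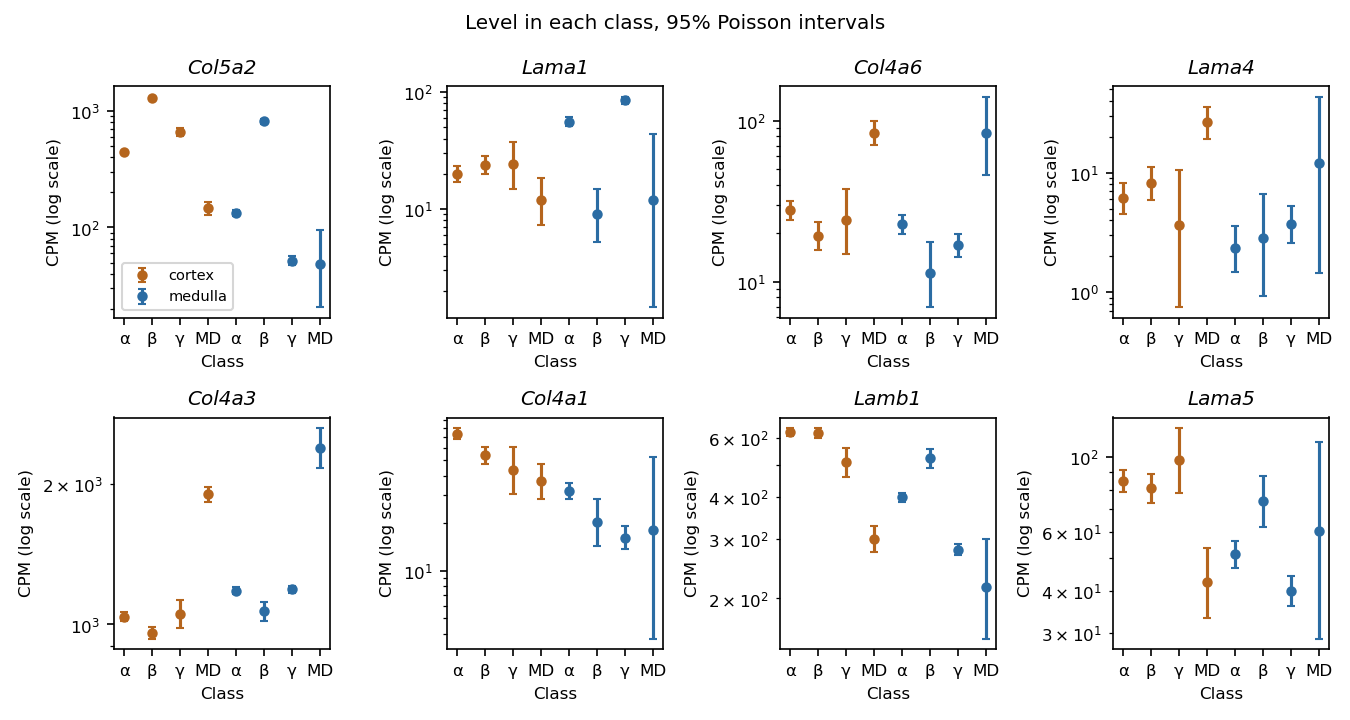
Level of 8 members in each class, as CPM on log scales that differ between panels, with 95% Poisson intervals, in cortex (brown) and medulla (blue). Col5a2 peaks in TAL-β of both libraries (1295 and 812 CPM), Lama1 in medullary TAL-γ (85.0 CPM), and Col4a6 and Col4a3 in MD of both.

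TAL-γ in medulla was compared with TAL-α and with TAL-β. Against TAL-α, 1 of 30 members was at least 2-fold higher, beside 0.559% of all genes, and 2 were at least 2-fold lower, beside 1.93%. The higher member was Col18a1, at 27.6 CPM against 13.1 CPM (ratio 2.11, 1.69 to 2.63). The lower members were Col5a2 (0.390, 0.350 to 0.434) and Nid2, a nidogen, at 2.54 CPM against 8.64 CPM (0.294, 0.177 to 0.472). Nid2 overlaps Rtraf on the other strand over 1488 bases. Col4a1, at 0.508, and Col27a1, at 0.814, passed 2-fold when purged, at 0.455 (0.363 to 0.568) and 0.389 (0.205 to 0.706). Against TAL-β, 2 of 23 members were at least 2-fold higher, beside 3.17% of all genes, and 2 at least 2-fold lower, beside 3.55%. Lama1 and Col12a1, a fibril-associated collagen, were higher, the latter at 8.17 against 3.98 CPM with an interval from 0.947 to 5.28 that includes 1 and a purged ratio of 1.92. Col5a2 (0.0640, 0.0576 to 0.0711) and the fibrillar collagen Col27a1 (0.409, 0.286 to 0.591, purged 0.271) were lower. Col23a1 went from 1.79 to 2.35 (0.954 to 7.48) when purged.

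The most abundant laminin chain was also lower in medullary TAL-γ without passing 2-fold. Lamb1, the beta chain of most embryonic laminins, was at 399.8 CPM in medullary TAL-α, 523 CPM in TAL-β, 279.7 CPM in TAL-γ and 217 CPM in MD, and at 625, 622, 509 and 302 CPM in the cortical classes. The ratio of TAL-γ over TAL-α was 0.6996 (0.665 to 0.736) and that of TAL-γ over TAL-β 0.535 (0.496 to 0.577). Lama5, the major alpha chain of mature tubule basement membranes, had ratios of 0.780 (0.679 to 0.896) and 0.542 (0.442 to 0.667). Lamc1, the common gamma chain, stayed between 90.9 and 157 CPM in all 8 classes, and Lamb2, the beta chain of mature glomerular laminin, between 18.8 and 27.3 CPM. Lamb3 and Lama2, chains of epithelial and muscle laminins, had 129 and 221 counts in all and were at most at 19.4 and 14.2 CPM.

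MD nuclei differed from TAL-α in the type IV chains. In cortex 2 of 25 members were at least 2-fold higher in MD than in TAL-α, beside 4.89% of all genes, and 3 at least 2-fold lower, beside 4.84%. Col4a6, whose chain joins the X-linked Col4a5 product, was at 84.6 CPM in MD, 27.9 CPM in TAL-α, 19.3 CPM in TAL-β and 24.2 CPM in TAL-γ of cortex. The medullary levels were 84.3 CPM in MD (14 counts), 22.7 CPM in TAL-α, 11.4 CPM in TAL-β and 16.9 CPM in TAL-γ. MD was highest in both libraries, with a ratio over TAL-α of 3.03 (2.44 to 3.76) in cortex. The medullary ratio, compared after seeing the data, was 3.71 (1.996 to 6.37). Along the counts of Nos1 and Pappa2, purged cortical Col4a6 was at 23.4 CPM with 0 counts and 53.9 CPM with 1. With 2 counts, below the MD cut, it was at 163 CPM (115 to 225), the highest cortical bin. The bins within MD held 94.7, 89.3 and 103 CPM. Medullary MD bins ranged from 35.2 CPM on 2 counts to 179 CPM on 8 counts.

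Col4a5, the neighbour of Col4a6 in head-to-head orientation on chromosome X, did not follow it, with a ratio of MD over TAL-α of 1.01 (0.902 to 1.14) in cortex. Col4a6 therefore took 28.1% (24.3% to 32.3%) of the summed counts of the pair in cortical MD and 8.58% to 11.6% in the other cortical classes. In medullary MD the share was 20.3% (11.6% to 31.7%) against 4.20% to 8.36% in the other classes.

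Col4a3 and Col4a4, whose products form the Alport network with that of Col4a5, were the most abundant members by counts. Col4a3 was at 1038, 959 and 1053 CPM in cortical TAL-α, TAL-β and TAL-γ and at 1901 CPM in cortical MD. In medulla it was at 1182, 1067 and 1190 CPM in these classes and at 2391 CPM in MD. Outside MD it stayed between 959 and 1190 CPM, while MD exceeded TAL-α by 1.83-fold in cortex (1.76 to 1.91) and by 2.02-fold in medulla (1.83 to 2.24). For Col4a4 these ratios were 1.39 (1.32 to 1.46) and 1.35 (1.19 to 1.53). The share of Col4a3 in the counts of the pair was 60.02% (58.7% to 61.3%) in cortical MD, 61.2% (57.3% to 64.9%) in medullary MD and 50.02% to 54.1% in the other classes. Col4a3 overlaps the lncRNA C430014B12Rik on the other strand over 30144 bases and Col4a4 over 159 bases, so counts of both strands cannot be separated here.

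Col4a3 had like levels in proximal barcodes, and Col4a4 was somewhat lower there. The 85 cortical proximal barcodes held Col4a3 at 1078 CPM and the 95 medullary ones at 1235 CPM, where the TAL nuclei held 1104 and 1186 CPM. Col4a4 was at 782 and 699 CPM there and at 932 and 1142 CPM in TAL nuclei. Umod, which encodes uromodulin of the TAL, was at 92.7 and 78.2 CPM in these barcodes against 3245 and 3788 CPM. Lamb1 was at 221 and 241 CPM in proximal barcodes, below all TAL classes except medullary MD.

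The pair Col4a1 and Col4a2, which forms the network of nearly all basement membranes, ran against Col4a3 and Col4a4. Col4a2 was at 117 CPM in cortical TAL-α and 52.8 CPM in cortical MD, with a ratio of 0.453 (0.359 to 0.564) and a purged ratio of 0.268. In medulla it was at 64.1 CPM in TAL-α and at 12.1 CPM in MD on 2 counts. Col4a1 was at 73.8 CPM in cortical TAL-α, 37.2 CPM in cortical MD, 32.0 CPM in medullary TAL-α and 16.2 CPM in medullary TAL-γ. Its ratio of MD over TAL-α in cortex was 0.504 (0.381 to 0.655), and 0.380 (0.2598 to 0.540) when purged. Both were highest in cortical TAL-α, and the 2 genes overlap by 356 bases.

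Lama4, a laminin alpha chain of vessel walls, was the other member that was higher in MD. It was at 26.4 CPM in cortical MD (44 counts) and 6.15, 8.22 and 3.64 CPM in cortical TAL-α, TAL-β and TAL-γ, and was detected in 5.21% of MD and 1.56% of TAL-α nuclei. Proximal barcodes held it at 37.6 CPM in cortex, from 15 counts in 7 of 85 barcodes (8.24%). The 95 medullary proximal barcodes had 0 Lama4 counts, which allows a share of up to 3.16%. The ratio of MD over TAL-α was 4.29 (2.79 to 6.58), and 8.29 (4.87 to 14.5) when purged. In medullary MD it had 2 counts. Lama4 overlaps Fam229b on the other strand over 3608 bases. Endothelial markers summed to 151 CPM in cortical MD and 125 CPM in cortical TAL-α, and to 40.02 and 46.5 CPM when purged. The lower members besides Col4a2 were Col5a2 (0.332, 0.290 to 0.378) and Lamb1 (0.483, 0.439 to 0.529). Lama5 was at 0.5002 and at 0.478 (0.354 to 0.634) when purged.

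Against TAL-β, 3 of 27 members were at least 2-fold higher in cortical MD, beside 4.84% of all genes, and 3 at least 2-fold lower, beside 5.73%. Col4a6 was higher by 4.38 (3.37 to 5.71), Lama4 by 3.21 (2.06 to 5.00) and Col20a1, a fibril-associated collagen, by 2.07 (1.38 to 3.10), of which Lama4 was at 10.8 (5.16 to 25.1) and Col20a1 at 1.62 (1.01 to 2.58) when purged. Col5a2 was lower at 0.113 (0.0990 to 0.128, purged 0.0717), Lamb1 at 0.485 (0.441 to 0.533) and Hspg2 at 0.433 (0.178 to 0.910, purged 0.243 on 2 counts). Col4a3 over TAL-β was 1.98 (1.90 to 2.07) and 2.25 (2.13 to 2.37) when purged, and Col4a2 was at 0.548 and at 0.397 (0.272 to 0.564) when purged.

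Of the linker proteins, Agrn was lower in MD than in the other classes, Nid2 was higher in MD, and the others were low. Agrn, the gene of agrin, was at 75.6, 79.2, 89.7 and 54.6 CPM in cortical TAL-α, TAL-β, TAL-γ and MD and at 88.8, 74.0, 84.1 and 42.2 CPM in the medullary classes, the last on 7 counts. Its ratio of MD over TAL-α in cortex was 0.722 (0.573 to 0.901). Nid2 was at 22.5, 20.9, 9.70 and 33.0 CPM in the cortical and at 8.64, 6.83, 2.54 and 30.1 CPM in the medullary classes, the last on 5 counts. It was highest in MD of both libraries. Hspg2 had 230 counts and Nid1 73 counts in all TAL nuclei.

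Another 24 members had 8 to 144 counts each in all TAL nuclei and stayed at or below 9.70 CPM in every class. They include Col1a1 (21 counts) and Col3a1 (40 counts), the main chains of interstitial fibrils. Col7a1, which encodes anchoring fibrils, was at 4.64 to 11.1 CPM over the classes.

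Between the libraries, most members that differed were lower in medulla. In TAL-α 2 of 32 members were at least 2-fold higher in medulla than in cortex, beside 1.59% of all genes, and 9 at least 2-fold lower, beside 8.84%. In TAL-β 0 of 29 were higher, beside 0.753%, and 10 lower, beside 8.98%. The median ratio of the members was 0.660 in TAL-α and 0.589 in TAL-β, where those of all genes were 0.9501 and 0.9499. Trimmed-mean scaling divided the ratios of medulla over cortex in TAL-α by 0.928, which raised them. It divided those of MD over TAL-α in cortex by 1.08, which lowered them.

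Among the members that were lower in medullary TAL-α, Col5a2 (0.302, 0.283 to 0.323), Col4a1 (0.433, 0.376 to 0.499) and Nid2 (0.384, 0.292 to 0.502) had purged ratios of 0.274, 0.428 and 0.345. Of the others, Lama3, Col27a1 and Col8a1 moved most when the barcodes with other markers were left out. Lama3, an alpha chain of the epidermal laminin, was at 57.6 CPM in TAL-α of cortex and 9.28 CPM in TAL-α of medulla, and at 276 CPM in cortical proximal barcodes. Its ratio of 0.161 (0.127 to 0.203) became 0.517 (0.2504 to 1.05) when purged. Col27a1 was at 103 and 13.4 CPM in TAL-α and at 416 CPM in cortical proximal barcodes, and its ratio of 0.130 (0.107 to 0.157) became 0.257 (0.176 to 0.369). Col8a1, a network-forming collagen, went from 0.447 (0.297 to 0.664) to 1.06 (0.523 to 2.23). Lamb3 (0.344), Lama4 (0.381) and Lama2 (0.402) completed the list. Lamb3 and Lama4 had purged ratios of 0.525 and 0.506, and Lamb3 overlaps Hsd11b1 and G0s2 on the other strand. Besides Lama1, Col12a1 was higher in medulla at 7.36 against 3.39 CPM (2.17, 1.37 to 3.52, purged 1.996).

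In TAL-β the lower members were Col26a1, Col14a1, Lama2, Nid2, Col8a1, Lama1, Lama3, Col27a1, Col4a1 and Col4a2, with ratios from 0.194 for Lama3 to 0.490 for Col4a2. Medullary counts were 4 to 83 for these 10 genes. Col4a1 at 20.5 against 53.7 CPM (0.381, 0.262 to 0.541) and Nid2 at 6.83 against 20.9 CPM (0.328, 0.164 to 0.596) had purged ratios of 0.424 and 0.356. Lama3 moved to 0.790 (0.249 to 2.19) on 6 and 14 counts, Lama2 from 0.282 to 0.679, Col4a2 from 0.490 to 0.574 and Col27a1 from 0.224 to 0.375. Col5a2 went from 0.627 to 0.492 (0.463 to 0.522). Col4a3, Col4a4 and Col4a5 did not share this direction. Their ratios were 1.11 (1.05 to 1.17), 1.11 (1.04 to 1.17) and 1.27 (1.13 to 1.41).

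**Figure D5:**
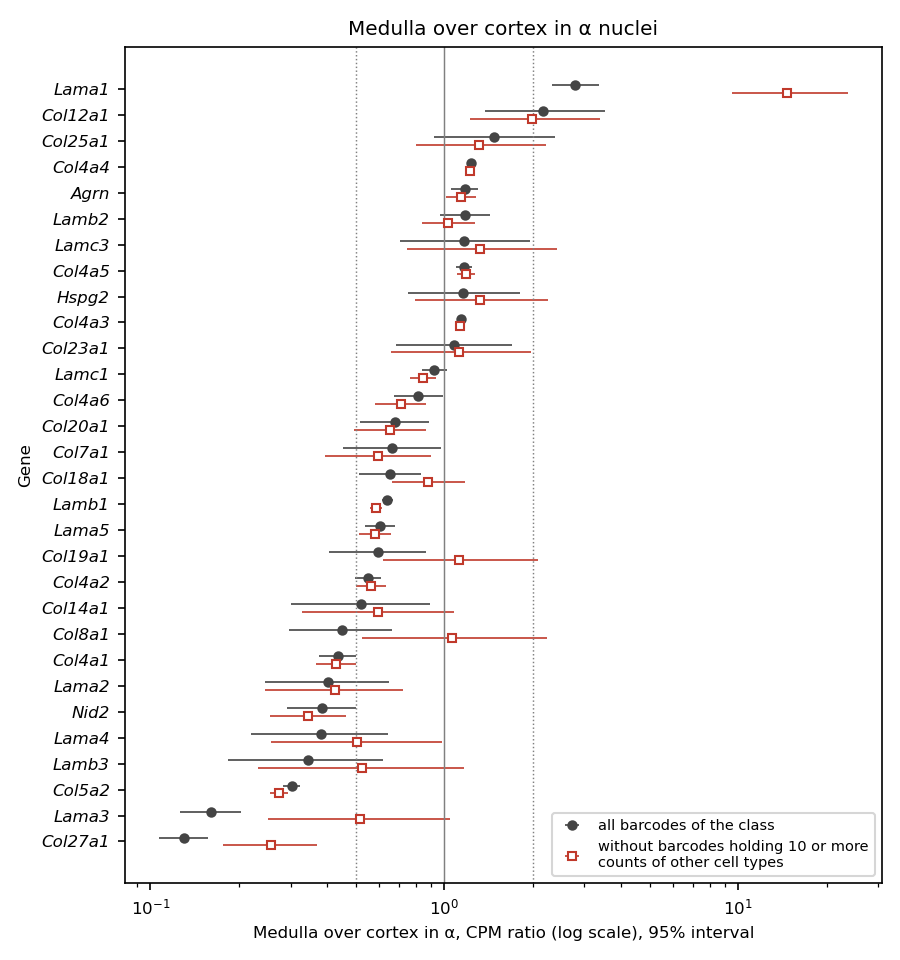
CPM ratio of medulla over cortex in TAL-α on a log scale for the named members with at least 50 counts, ordered by ratio. Filled circles use all barcodes of the class and open squares leave out barcodes with 10 or more counts of other cell types, both with 95% conditional binomial intervals. Lama1 moves from 2.79 to 14.7, Lama3 from 0.161 to 0.517 and Col27a1 from 0.130 to 0.257, while Col5a2, Col4a1 and Nid2 stay below 0.5.

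Other genes of the matrix were read from 4 lists of receptors (19 genes), processing enzymes (25), other basement membrane and matrix proteins (26) and proteases with their inhibitors (22), to be read against the shares of all genes given above. Among receptors with 50 counts, 1 of 14 was at least 2-fold higher in cortical TAL-β than in TAL-α and 2 of 12 in medullary TAL-β. The integrin subunits Itgb6 and Itgav had ratios of 2.21 (2.06 to 2.37) and 2.36 (2.10 to 2.64) in medulla and of 1.67 and 1.69 in cortex. Dag1, the gene of the laminin receptor dystroglycan, had ratios between 0.839 and 1.19 in the 6 comparisons of classes within a library. The receptor higher in cortex was Cd44 at 7.08 against 2.76 CPM (2.56, 1.47 to 4.56). Of the matrix proteins, 4 of 16 in cortex and 4 of 9 in medulla were higher in TAL-β. Efemp1, a fibulin family gene, had ratios of 2.19 (1.96 to 2.44) and 3.04 (2.65 to 3.48). Ntn1, which encodes netrin 1, had ratios of 2.07 (1.91 to 2.24) and 4.13 (3.498 to 4.88), and 4.51 and 7.44 when purged. Tinag, a tubulointerstitial nephritis antigen of the basement membrane, had ratios of 2.18 (2.05 to 2.31) and 3.32 (3.07 to 3.59). The remaining gene was Fbn1, which encodes fibrillin, in cortex (4.92, 2.59 to 9.99) and Frem2, of the Fraser complex, in medulla (2.36, 1.298 to 4.14, purged 1.95). Of the proteases and inhibitors 1 of 13 was higher in cortex, Adamts5 (2.61, 1.48 to 4.71, purged 1.58), and 0 of 8 passed 2-fold in medulla.

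Of the processing enzymes, 0 of 17 in cortex passed 2-fold in TAL-β and in medulla 1 of 13 was lower. That gene was Plod2, a lysyl hydroxylase of collagen, at 21.6 CPM in TAL-β, 72.6 CPM in TAL-α and 83.3 CPM in TAL-γ. In TAL-γ over TAL-α, 1 of 11 matrix proteins was higher and 2 of 8 proteases and inhibitors were lower. Npnt, the gene of the integrin ligand nephronectin, was higher at 8.61 against 4.05 CPM (2.13, 1.43 to 3.22, purged 3.31), and the protease genes Mmp14 (0.499, purged 0.533) and Adamts10 (0.474) were lower.

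In cortical MD over TAL-α, Frem1, which encodes a protein of the Fraser complex that anchors epithelia to the basement membrane, was at 136 CPM against 8.41 CPM (16.1, 12.2 to 21.5). It was at 211 CPM in medullary MD on 35 counts. Pxdn, the gene of the peroxidase that makes sulfilimine bonds in type IV collagen, was at 16.2 CPM against 4.14 CPM (3.91, 2.26 to 6.70, purged 5.90). Timp2 (4.09, 2.43 to 6.87) and Mmp14 (2.72, 1.77 to 4.13) were also higher. Ntn4, the gene of a netrin that binds laminins, was lower at 120 against 485 CPM (0.247, 0.214 to 0.285), as were Colgalt2, a collagen galactosyltransferase (0.387, 0.331 to 0.451), and Efemp1 (0.477, 0.355 to 0.630). Htra1, a protease gene, had 0.469 (0.228 to 0.872) and 1.14 when purged. In this comparison 1 of 15 processing enzymes was higher and 1 lower, 1 of 14 matrix proteins higher and 2 lower, 2 of 11 proteases and inhibitors higher and 1 lower, and 0 of 11 receptors passed 2-fold.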

How the data were processed

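Nuclei sorted for GFP from dissected cortex and medulla were measured by PIPseq single-nucleus RNA sequencing, 1 library per region. PIPseeker was used by the authors for alignment (GRCm39) and counting. The deposited matrices hold raw counts, before the authors' doublet removal, ambient correction and integration (the submitters' notes also name bcl2fastq and Seurat 4.4.0). Filtered barcodes were used, and the raw matrices served only for barcodes with at most 100 counts. The deposited cluster numbers and UMAP coordinates were not used.

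Counts were read in Python 3.11.15 (numpy 2.4.6, scipy 1.17.1, pandas 2.3.3), summed per class and library and divided by all counts of that class (CPM). The cortex library held 16457300 and the medulla library 20947211 counts. CPM carry exact Poisson, ratios conditional binomial and shares Clopper-Pearson intervals at 95%, for counting error only. Where a count was 0, the limit given is that of 3 counts. Counts are treated as independent molecules. With 1 library per region no p-value was given. A gene was past 2-fold with at least 50 counts over both classes and a ratio of at least 2 or at most 0.5. Ratios and intervals were tested on simulated independent Poisson counts. This tests the calculation and not whether counts in these nuclei are independent. Doublets were left in and removed in an alternative (Scrublet in scanpy 1.11.5, 359 cortical and 406 medullary barcodes, the latter the highest 5% of scores). Thinning to 1000 counts left out 18 TAL-α and 5 TAL-γ medullary nuclei.

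Type IV chains, members with at least 200 counts in the TAL classes and members past 2-fold in any of 8 comparisons were named, except 1 member that is not reported here, as were genes of the 4 lists past 2-fold in TAL-β over TAL-α, TAL-γ over TAL-α or MD over TAL-α. Dag1, Itgav, Itgb6 and Plod2 were described in further comparisons after their values were seen. The members and lists were chosen with earlier results of these data known. The 4 further comparisons of classes, the bins along marker counts and the list genes without other cell types were added after seeing the data. Gene coordinates and the printed sequences are from GRCm39 and GENCODE M39.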

Additional observations from a re-analysis of the deposited data

Results flagged for a closer look

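Col5a2 moved in opposite directions between TAL-γ and TAL-α in the 2 libraries, with a ratio of 1.497 in cortex and 0.390 in medulla. The difference was not tested, since each library is a single sample. Cortical TAL-γ nuclei had levels of Ano4, Kcnt1 and Pth1r unlike those of medullary TAL-γ, while Kcnj10 was at 144 and 109 CPM. Their Cldn16, Pth1r and Ptger3 levels were 153, 455 and 376 CPM. These were closer to cortical TAL-β (188, 566 and 157 CPM) than to medullary TAL-γ (55.0, 42.0 and 1488 CPM). The 2 ratios therefore need not compare the same kind of nuclei.

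Barcodes not called as nuclei were outside all comparisons and held 18.2% of the counts in cortex and 11.2% in medulla. Among those with at most 100 counts, members with at least 20 counts were singled out where they were at least 2-fold higher than in the TAL classes of the same library, with an interval above 1. In cortex these were Col19a1 at 39.5 CPM, Col6a6 at 25.6 CPM, Lama2 at 22.6 CPM, Lama4 at 19.9 CPM, Col14a1 at 18.1 CPM, Col25a1 at 15.1 CPM, Col1a2 at 10.9 CPM, Lamc3 at 10.5 CPM, Nid1 at 8.28 CPM and Col15a1 at 7.53 CPM. In medulla these were Col27a1 at 28.7 CPM, Col19a1 at 27.7 CPM, Col25a1 at 13.1 CPM, Col6a6 at 12.6 CPM and Col8a1 at 9.72 CPM. The origin of these transcripts was not tested.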

How the results depend on the processing

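No paired analysis was possible because each region had 1 library and the labels give no replicate numbers. The same lack of replicates means that no library could be left out. Shares of all genes were computed only at 2-fold with the main settings. The counts below therefore have no such share beside them and describe the dependence on settings only. With a fold of 1.5 the members past the fold numbered 13 and 9 for TAL-β over TAL-α in cortex and medulla (7 and 3 at 2-fold), 9 for TAL-γ over TAL-α (3), 9 for TAL-γ over TAL-β (4), 11 and 17 for MD over TAL-α and TAL-β (5 and 6), and 19 and 18 for medulla over cortex in TAL-α and TAL-β (11 and 10). For TAL-β over TAL-α in medulla the count of 3 became 7 without doublets, 7 with stricter class cuts, 5 with the mean of nuclei and 6 with an ambient profile subtracted. Stricter cuts gave 7 for TAL-γ over TAL-β. For MD over TAL-β the count was 11 without doublets, 11 with the mean of nuclei and 12 with a minimum of 20 counts. Without barcodes holding other cell types it was 5 for TAL-γ over TAL-α, and 7 and 4 for medulla over cortex in TAL-α and TAL-β. Thinning to 1000 counts, which lowers the number of members with 50 counts, gave 1 for TAL-β over TAL-α in cortex and 7 and 2 for medulla over cortex. Among ratios past 2-fold, leaving out barcodes with other cell types moved those of Col19a1, Col8a1 and Lama1 across 1, with intervals that include 1. Col19a1 was at 0.829 (0.314 to 1.98) for TAL-β over TAL-α in cortex. For medulla over cortex, Col8a1 was at 1.06 (0.523 to 2.23) in TAL-α and Lama1 at 2.15 (0.619 to 7.74) in TAL-β. Some ratios short of 2-fold also crossed 1. For example, Lama2 was at 14.2 CPM in cortical TAL-β and 7.16 CPM in cortical TAL-α, with a purged ratio of 0.985 (0.536 to 1.75). For TAL-β over TAL-α in cortex, Col5a2 and Lamc3 of the 7 members still passed with 50 counts without these barcodes. The cause of these changes was not tested. Medullary MD held 78 nuclei, where a count of 0 allows up to 18.1 CPM by the rule of 3 counts.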
